A study of Mus musculus with 8 samples.

Results

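The comparison described here is that of 4T1 cells carrying a Gpr56 vector with 4T1 cells carrying the empty vector. It takes in 4 of the 8 libraries of the study, 2 per vector, chosen by the vector named in the sample characteristics. 4T1 is a mammary carcinoma line from BALB/c mice that spreads to distant organs when grafted, and the other 4 libraries are from TS/A, a second BALB/c mammary carcinoma line. Every group was bulk RNA from cells that had been transduced with a virus vector, either empty or expressing Gpr56, and grown in RPMI with 10% FCS. RNA was taken after 72 h. What promoter drives the vector, how many clones were used and at what passage were not given in the sources used here. A difference between clones or pools of cells therefore cannot be told apart from the vector.

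Labels of the same libraries disagree with each other on what separates the groups. The characteristics contrast the empty vector with the Gpr56 vector, whereas the titles of the same libraries read Emp_Control and Emp_ColIII, and the study's design text places transduced cells on type III collagen. By the labels, a difference in vector and a difference in collagen culture cannot be told apart, and each value below carries that limit. Groups are named by the characteristics. Nothing in the labels says whether both libraries of a group are from separate cultures. The p-values therefore measure only the spread between these libraries, which may be technical.

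GPR56, whose gene is now named Adgrg1, is an adhesion G protein-coupled receptor. Its long extracellular part is cut from the transmembrane part during maturation, and the fragments stay bound to each other at the cell surface. Type III collagen binds the extracellular part, and the receptor signals mainly through G proteins of the G12/13 class to RhoA. RhoA in turn controls the actin cytoskeleton and the tension at the junctions of epithelial cells, so the genes of junctions, cytoskeleton and matrix are described first below.

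Adgrg1 was far higher in the libraries with the Gpr56 vector. Its reads numbered 45 and 59 in the 2 empty-vector libraries and 1934 and 1068 in the 2 Gpr56-vector libraries. On the CPM scale (reads scaled to a common library size with TMM factors), the levels were 2.53 and 2.77 CPM in the empty-vector libraries and 90.5 and 100.2 CPM in those with the Gpr56 vector. Both Gpr56-vector libraries stood far above both empty-vector libraries, so the transduced gene matched the vector labels in this line (edgeR's quasi-likelihood test, log2 fold change 5.15, SE 0.11, adjusted p = 7.74e-14). Over all settings tried, this log2 fold change lay between 5.08 and 5.23. GENCODE M21 places ENSMUSG00000031785, its Ensembl entry, on chromosome 8 at 94974751 to 95014217 (GRCm38). The counts do not part reads of the vector's insert from reads of the cell's own gene.

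The files count transcripts, and 1 transcript row, ENSMUST00000093271, held 98.1% and 99.3% of the Adgrg1 reads in the Gpr56-vector libraries. In the empty-vector libraries it held 93.3% and 11.9%. In the second of these, 48 of the 59 reads were placed on another row, ENSMUST00000179619. How reads were split between near-identical transcripts was settled in the authors' counting, so the rows are described and not tested. Among the neighbours within 100 kb, Adgrg3, another adhesion receptor gene, rose as well, with 9.06 and 8.55 CPM in the empty-vector libraries and 19.1 and 17.9 CPM in those with the Gpr56 vector (log2 fold change 1.08, SE 0.13, adjusted p = 4.37e-05). Dok4, Ccdc102a and Kifc3 did not pass the test, with log2 fold changes from -0.25 to 0.18. Adgrg5 and Drc7 had at most 1 read in any library and were not tested.

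Across the transcriptome, 11361 genes were expressed enough to be tested. Of these, 1308 rose (11.5%) and 1280 fell (11.3%) at an adjusted p under 0.05, which makes 2588 changed genes (22.8%). Most changes were small. The median absolute log2 fold change of the 2588 genes was 0.36, and 128 of them rose and 147 fell by at least 2-fold. For 7012 genes (61.7%) both libraries of a group lay on 1 side of both others. The count of 2588 was 1596 without empty-vector library 1 and 1403 without empty-vector library 2. When the spread was estimated from both lines together, 27 genes passed, 15 of them higher and 12 lower. Scaling by library totals in place of TMM factors turned the split to 1624 higher and 1042 lower. The empty-vector libraries held 17903763 and 21625026 reads in genes, and the Gpr56-vector libraries 21190814 and 10510569, so 3 reads correspond to at most 0.285 CPM.

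**Figure D1:**
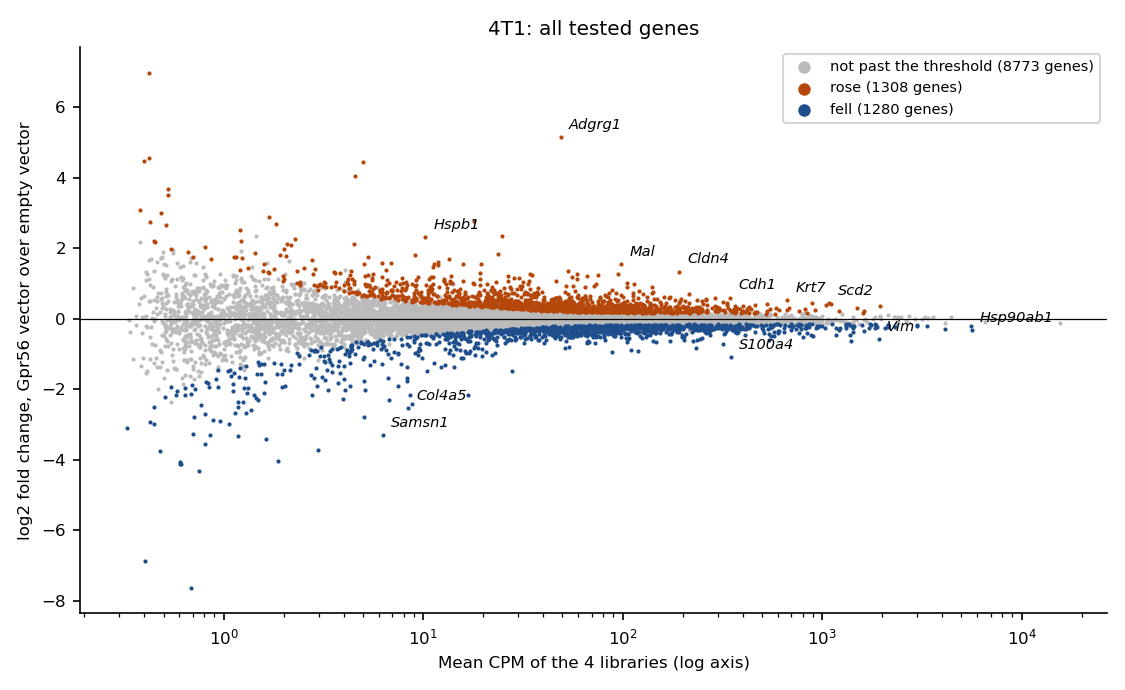
Each point is 1 of the 11361 tested genes, with its mean CPM over the 4 libraries of 4T1 on a log axis against its log2 fold change (Gpr56 vector over empty vector). Orange and blue mark the 1308 genes that rose and the 1280 that fell at an adjusted p under 0.05. Adgrg1 stands apart at 5.15 among genes over 10 CPM, and most changed genes lie close to 0.

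The largest increases after Adgrg1 included genes of polarised epithelium, of apical transport and of the stress response. Named by a rule on size, level and type of symbol, the 15 largest increases ran from Adgrg1 down to Ehf (1.30). The rule also asks for an adjusted p under 0.05 and groups that do not overlap, so their separation adds no support. The rule leaves out Gm, Rik, accession-like and ribosomal pseudogene symbols, for increases and decreases alike. Hspb1, a small heat shock protein, was at 3.43 and 3.38 CPM in the empty-vector libraries and 15.4 and 18.9 CPM in those with the Gpr56 vector (log2 fold change 2.31, SE 0.17, adjusted p = 3.51e-07). Myh14, a nonmuscle myosin heavy chain, was at 6.08 and 6.53 CPM in the empty-vector libraries and 20.2 and 20.9 CPM in those with the Gpr56 vector (1.70, SE 0.14, adjusted p = 7.56e-07). In both genes the libraries of a group lay close together. Mal, a proteolipid of apical membrane transport, was at 47.6 and 52.2 CPM in the empty-vector libraries and 140.2 and 155 CPM in those with the Gpr56 vector (1.56, SE 0.07, adjusted p = 1.92e-09). Its relative Mall was at 9.17 and 10.4 CPM in the empty-vector libraries and 27.3 and 31.2 CPM in those with the Gpr56 vector (1.57, SE 0.13, adjusted p = 6.84e-07). Both are on chromosome 2.

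Others of this set belong to the same kinds of gene. Krt16, a keratin of stressed epidermis, was at 3.94 and 3.15 CPM in the empty-vector libraries and 11.7 and 9.01 CPM in those with the Gpr56 vector (1.57, SE 0.20, adjusted p = 7.12e-05). Rab25, a Rab GTPase of recycling endosomes in epithelia, was at 8.55 and 7.66 CPM in the empty-vector libraries and 24.5 and 22.4 CPM in those with the Gpr56 vector (1.54, SE 0.13, adjusted p = 1.22e-06). Both genes were higher in both Gpr56-vector libraries than in either empty-vector library, as the rule asks. Cldn4, a tight junction claudin, was at 107 and 111 CPM in the empty-vector libraries and 265 and 284 CPM in those with the Gpr56 vector (1.33, SE 0.06, adjusted p = 1.92e-09). Ehf, an epithelial transcription factor of the ETS family, was at 11.03 and 11.3 CPM in the empty-vector libraries and 27.5 and 27.5 CPM in those with the Gpr56 vector (1.30, SE 0.12, adjusted p = 1.93e-06). Wnt10a (1.55), a Wnt ligand, and Sox13 (1.46), a transcription factor, rose to a like extent on the log2 scale.

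For 2 of the 15, the empty-vector libraries differed from each other. Fam177a was at 2.64 and 17.3 against 32.6 and 42.2 CPM (1.84, SE 0.40, adjusted p = 0.0038; empty-vector libraries first, here and below), and Scand1 at 3.32 and 8.23 against 18.2 and 17.6 CPM (1.61, SE 0.25, adjusted p = 3.26e-04). The groups did not overlap in either gene, which the rule for naming asks for. Prl2a1, of the prolactin family, was at 6.25 and 6.02 against 18.3 and 17.1 CPM (1.53, SE 0.14, adjusted p = 3.47e-06). Its reads can be shared with close relatives, so its own level is uncertain. Just under the level of 10 CPM that naming asks for, and chosen after their values were seen, were genes with larger ratios. Ap1m2, the epithelial subunit of an adaptor complex for basolateral sorting, was at 0.675 and 0.235 against 10.1 and 9.10 CPM (4.44, SE 0.33, adjusted p = 3.51e-07). Tfpi, an inhibitor of tissue factor, was at 0.338 and 0.658 against 8.47 and 8.73 CPM (4.05, SE 0.31, adjusted p = 4.11e-07).

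The 15 largest decreases included genes of signalling, of the cytoskeleton and of the matrix. Samsn1, an adaptor protein, was at 9.68 and 13.2 CPM in the empty-vector libraries and 1.12 and 1.22 CPM in those with the Gpr56 vector (-3.30, SE 0.25, adjusted p = 4.11e-07). Marcks, an actin-binding substrate of protein kinase C, was at 13.3 and 16.5 CPM in the empty-vector libraries and 2.90 and 2.53 CPM in those with the Gpr56 vector (-2.43, SE 0.19, adjusted p = 5.05e-07). Ppp1r9a, which binds actin and protein phosphatase, was at 12.4 and 10.2 CPM in the empty-vector libraries and 2.48 and 1.97 CPM in those with the Gpr56 vector (-2.30, SE 0.21, adjusted p = 2.88e-06). In all 3 genes both Gpr56-vector libraries were the lower ones, as the rule asks. Serpine2, a serine protease inhibitor, was at 14.1 and 14.01 CPM in the empty-vector libraries and 2.95 and 3.47 CPM in those with the Gpr56 vector (-2.15, SE 0.18, adjusted p = 8.32e-07). Tgfbr3, the coreceptor betaglycan of the TGF-beta family, was at 12.2 and 11.7 CPM in the empty-vector libraries and 3.42 and 2.81 CPM in those with the Gpr56 vector (-1.90, SE 0.18, adjusted p = 4.66e-06).

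Among the collagen-related members, Col4a5, a chain of type IV collagen, was at 13.7 and 14.9 CPM in the empty-vector libraries and 2.25 and 2.81 CPM in those with the Gpr56 vector (-2.54, SE 0.19, adjusted p = 3.49e-07). Col6a1, a chain of type VI collagen, was at 13.8 and 11.8 CPM in the empty-vector libraries and 4.59 and 3.003 CPM in those with the Gpr56 vector (-1.69, SE 0.20, adjusted p = 2.52e-05). Antxr1, a receptor that binds collagen, was at 12.8 and 13.02 CPM in the empty-vector libraries and 3.98 and 3.57 CPM in those with the Gpr56 vector (-1.76, SE 0.17, adjusted p = 4.82e-06). These 3 genes were lower in both Gpr56-vector libraries, as the rule asks. Lpar1, a receptor for lysophosphatidic acid, fell by 1.69 on the log2 scale, and the leucine-rich proteoglycan Podnl1 fell by 1.37. Gpc4, a glypican, fell by 1.33 and Icam1, a ligand of leukocyte integrins, by 1.28. Cldn3 went the opposite way from Cldn4, at 16.2 and 14.5 against 5.01 and 6.29 CPM (-1.47, SE 0.16, adjusted p = 1.79e-05). Rps27rt, a retrogene whose reads can be shared with its parent, was at 19.7 and 62.8 against 17.4 and 11.4 CPM (-1.48, SE 0.35, adjusted p = 0.0065). Across the 30 largest changes, 17 genes had reads on 1 transcript row. For 22 genes the share of reads on the leading row stayed within 20 percentage points over the 4 libraries. Rps27rt (-0.41 on the log2 scale) did not pass without empty-vector library 2.

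**Figure D2:**
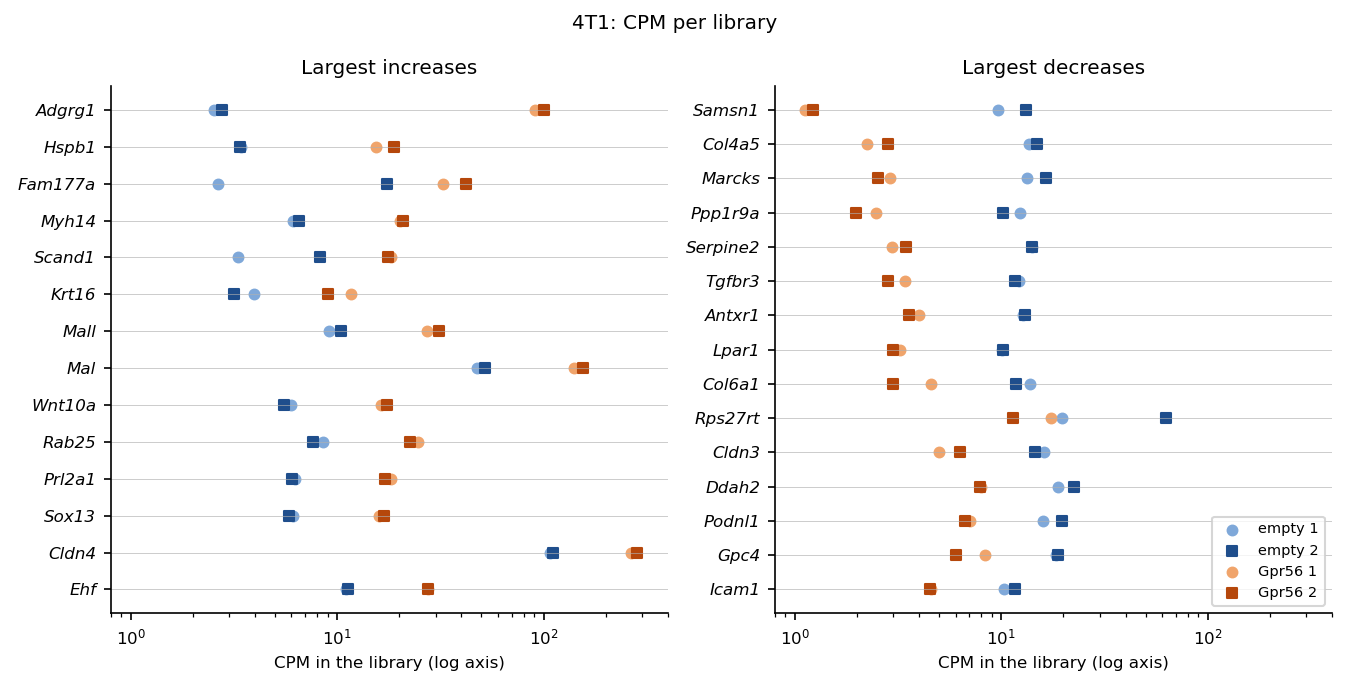
CPM in each of the 4 libraries (log axis) for 14 of the 15 largest increases and the 15 largest decreases, ordered by log2 fold change. Blue marks are empty-vector and orange marks Gpr56-vector libraries. The groups do not overlap in any of the 29 genes shown, which the rule for naming asks for, and the empty-vector libraries of Fam177a, Scand1 and Rps27rt lie far apart.

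By change in mean CPM, which favours abundant transcripts and is not scaled by length, other genes came first. Msn, the membrane-to-actin linker moesin, was at 1729 and 1706 against 2153 and 2234 CPM (0.35, SE 0.05, adjusted p = 1.16e-04). Scd2, a fatty acid desaturase, was at 957 and 884 against 1242 and 1275 CPM (0.45, SE 0.05, adjusted p = 3.26e-05), and Ptgs2, the inducible cyclooxygenase, at 931 and 965 against 1261 and 1296 CPM (0.43, SE 0.05, adjusted p = 2.79e-05). The groups of 2 did not overlap in these genes, which the rule for naming asks for, and the changes were under 1.5-fold. Anxa1 (0.44), an annexin, Krt7 (0.53), a simple epithelial keratin, and Fasn (0.22), fatty acid synthase, were also among the 10 largest increases on that scale. Vim, the intermediate filament of mesenchymal cells, was at 2266 and 2358 against 1600.5 and 1487 CPM (-0.58, SE 0.05, adjusted p = 2.26e-06). Hsp90ab1, a cytosolic chaperone, was at 6254 and 6245 against 4720.3 and 5283 CPM (-0.32, SE 0.05, adjusted p = 5.66e-04), and Rps3a1, a ribosomal protein, at 1818 and 1821 against 1444 and 1391 CPM (-0.36, SE 0.05, adjusted p = 1.05e-04). Lgals1 (-0.21), galectin-1, Rpsa (-0.28), a ribosomal protein, and Actg1 (-0.22), a cytoplasmic actin, fell as well. Lgals1 (-0.16 on the log2 scale) and Actg1 (-0.23) did not pass without empty-vector library 1. Fasn (0.18 on the log2 scale) and Actg1 (-0.21) did not pass without empty-vector library 2.

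The changes were spread unevenly over the chromosomes. On chromosome 17, 206 of 563 tested genes fell and 14 rose. On chromosome 3, 202 of 547 fell and 16 rose. On chromosome 16 the direction was the opposite, with 122 of 356 genes up and 6 down. Chromosomes 3 and 17 held 9.77% of the tested genes and 31.9% of all genes that fell, and chromosome 16 held 3.13% of the tested genes and 9.33% of all that rose. Chromosome 15 stood between, with 98 of 457 genes down. On the other 16 nuclear chromosomes, between 3.85% and 19.4% of genes fell and between 7.45% and 20.3% rose.

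The shift ran unevenly along chromosomes 3, 16 and 17 and was small per gene. Over genes at a mean of 10 CPM or more, the median log2 ratio of chromosome 17 was -0.23, -0.24, -0.21 and -0.21 in the 4 pairings of a Gpr56-vector with an empty-vector library. For chromosome 3 it was -0.20, -0.20, -0.21 and -0.20, and for chromosome 16 it was 0.18, 0.19, 0.18 and 0.18. Between the 2 libraries of a vector, the median of a nuclear chromosome was at most 0.0345 in size. In TS/A the same chromosomes had median log2 fold changes of 0.00, 0.02 and -0.07. In overlapping windows of 40 neighbouring genes over 10 CPM, at least 20 genes fell in 9 of 19 windows of chromosome 3 and in 8 of 19 of chromosome 17. On chromosome 15, 5 of 16 windows did so, and in the one with most decreases 27 of the 40 genes, which start between 38291463 and 58941234, fell. The first 5 windows of chromosome 15 had median log2 fold changes from -0.29 to -0.18, and the others from -0.11 to 0.06. On chromosome 16, at least 20 genes rose in 3 of 13 windows. Window medians ran from -0.28 to -0.06 on chromosome 3, from -0.30 to -0.09 on chromosome 17 and from 0.09 to 0.27 on chromosome 16. Some windows elsewhere shifted as well, with medians of -0.15 on chromosome 11 and 0.20 on chromosome 1. A copy number of these chromosomes was not measured, and a difference between the cell populations that carry each vector cannot be told apart from the vector.

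Each chromosome was then centred on its median in every library, an alternative chosen after the data were seen. On chromosome 15, whose median was -0.09, this leaves part of the shift of the first windows in place. It also raises the genes elsewhere on that chromosome, so centred values of chromosome 15 genes carry that limit. The count of changed genes was then 2006, of which 1774 were among the 2588. Named genes that no longer passed included Hsp90ab1 and Ccnd3 on chromosome 17, Cnn3, Cyr61, Gclm and Anxa5 on chromosome 3, and Lgals1, Pabpc1 and Pdgfb on chromosome 15. S100a4, on chromosome 3, and Vim, on chromosome 2, still passed, as did the 30 largest changes. Eif4g1, on chromosome 16, turned from 0.17 to -0.02 on the log2 scale.

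**Figure D3:**
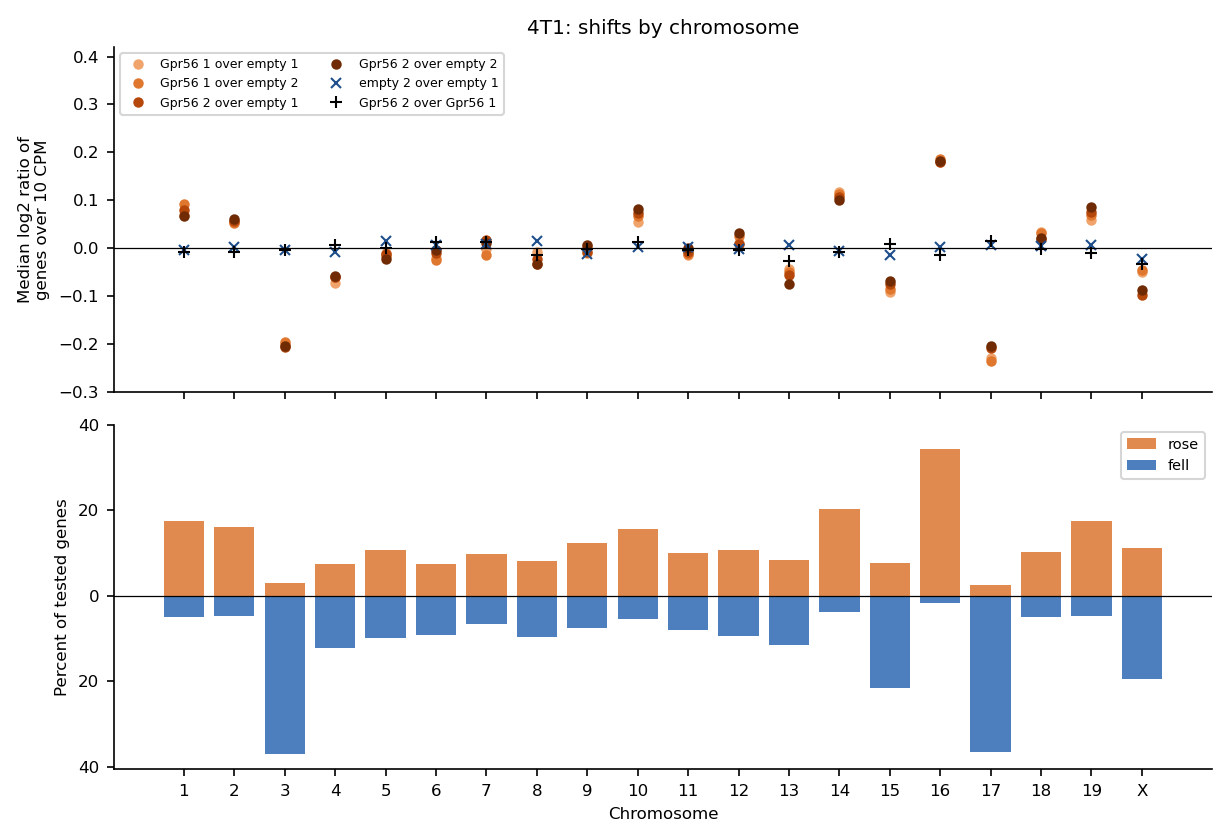
Upper panel: median log2 ratio of genes over 10 CPM on each nuclear chromosome, for the 4 pairings of a Gpr56-vector with an empty-vector library (dots) and for the 2 pairs within a vector (crosses). Lower panel: percent of tested genes that rose or fell. Chromosomes 3 and 17 lie near -0.2 and chromosome 16 near 0.18 in every pairing, while pairs within a vector stay near 0, at most 0.0345 from it.

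Fold changes also moved with GC content. Genes over 10 CPM were split into 5 bins of equal size by the GC content of their leading transcript. In the bin with least GC (31.9% to 44.5%), 5.30% of genes rose and 22.8% fell, with a median log2 fold change of -0.09. In the bin with most GC (55.7% to 68.9%), 23.2% rose and 6.31% fell, with a median of 0.09. Between the 2 Gpr56-vector libraries the median also differed with GC, at -0.07 in the lowest bin and 0.01 in the highest. Between the empty-vector libraries both were 0.01. With GC-corrected offsets, also chosen after the data were seen, 2558 genes passed, 2139 of them among the 2588. The part of GC content in the single results was not tested beyond that.

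Junction, keratin and hemidesmosome genes rose together. Of the 8 tested keratins, 7 rose and 0.0 fell, with a median log2 fold change of 0.57, against -0.00 over all tested genes. Of the 19 tested genes of desmosomes, hemidesmosomes and the cornified envelope, 14 rose and 0.0 fell (median 0.47). Of the 12 adherens junction genes, 9 rose and 1 fell (median 0.31; 5 rose without empty-vector library 2). Of the 26 genes of tight junctions and polarity, 13 rose and 1 fell (median 0.27). For comparison, 11.5% of all tested genes rose and 11.3% fell, and these shares are the background for every list here and below. Here and below, brackets give counts that moved by over 1.5 times and at least 2 genes when 1 library was left out, with DESeq2, or with centred or GC-corrected offsets. The counts that rose were 7, 13, 7 and 13 with centred chromosomes and 7, 14, 9 and 13 with GC-corrected offsets, in the same order.

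Keratins build the intermediate filaments of epithelia. Krt19 was at 67.2 and 72.7 CPM in the empty-vector libraries and 151 and 130.4 CPM in those with the Gpr56 vector (1.01, SE 0.07, adjusted p = 2.68e-07) and Krt80 at 129.9 and 125 against 196 and 197 CPM (0.62, SE 0.06, adjusted p = 2.39e-06). The simple epithelial pair Krt8 and Krt18 rose by 0.29 and 0.42 on the log2 scale, and the basal keratin Krt14 by 0.62. In each, both libraries with the Gpr56 vector were the higher ones. Groups did not overlap in 2584 of all 2588 changed genes. Desmosomes anchor these filaments between cells. Ppl, the plakin periplakin, was at 29.3 and 30.7 CPM in the empty-vector libraries and 66.3 and 59.96 CPM in those with the Gpr56 vector (1.08, SE 0.08, adjusted p = 3.01e-07), and the core plakin Dsp rose by 0.59 and the plakophilin Pkp3 by 0.74 on the log2 scale. Hemidesmosomes anchor the filaments to laminin. Itgb4, their integrin chain, was at 49.97 and 49.4 CPM in the empty-vector libraries and 92.5 and 96.4 CPM in those with the Gpr56 vector (0.92, SE 0.06, adjusted p = 2.14e-07), and the laminin chains Lama3 and Lamb3 rose by 0.75 and 0.74. Tgm1, the transglutaminase of the cornified envelope, was at 2.53 and 2.26 against 7.25 and 9.20 CPM (1.76, SE 0.23, adjusted p = 7.43e-05).

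In the adherens junction, Cdh1, E-cadherin, was at 283 and 267 CPM in the empty-vector libraries and 405 and 428 CPM in those with the Gpr56 vector (0.60, SE 0.06, adjusted p = 3.64e-06). Jup, plakoglobin, which links cadherins to the cytoskeleton, was at 47.3 and 51.04 CPM in the empty-vector libraries and 103 and 92.5 CPM in those with the Gpr56 vector (0.9955, SE 0.07, adjusted p = 2.65e-07). Ctnnb1, beta-catenin, had a log2 fold change of -0.03 and did not pass. Afdn, afadin, on chromosome 17, fell in the fit of the 4 libraries (-0.17, SE 0.05, adjusted p = 0.036). It was at 0.05 on the log2 scale with centred chromosomes. In tight junctions, Tjp3 was at 1.01 and 0.846 against 3.37 and 3.003 CPM (1.79, SE 0.35, adjusted p = 0.0018), Crb3, a polarity protein of the apical membrane, at 1.41 and 1.27 against 4.35 and 4.13 CPM (1.67, SE 0.30, adjusted p = 0.0011) and Marveld3 at 3.32 and 3.85 against 8.98 and 9.95 CPM (1.38, SE 0.19, adjusted p = 1.37e-04). Cldn1 (1.33), Ocln (0.73) and Tjp1 (0.21) also rose. Cldn3 alone of the tested members fell. Afdn (-0.14 on the log2 scale) did not pass without empty-vector library 1. Afdn (-0.19 on the log2 scale) did not pass without empty-vector library 2. Afdn (-0.16 on the log2 scale) did not pass without Gpr56-vector library 1.

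Transcription factors and splicing regulators of epithelium rose more often than they fell. Of 21 tested, 12 rose and 1 fell, with a median log2 fold change of 0.59. Esrp1, which directs epithelial splicing, was at 38.2 and 39.4 CPM in the empty-vector libraries and 74.5 and 74.6 CPM in those with the Gpr56 vector (0.94, SE 0.07, adjusted p = 2.55e-07). Ovol1, a repressor of mesenchymal genes, was at 6.25 and 6.39 against 12.4 and 12.01 CPM (0.95, SE 0.16, adjusted p = 4.90e-04). Grhl2 and Elf3 rose by 0.42 and 0.75 on the log2 scale. Id2, an inhibitor of helix-loop-helix factors, fell, at 10.8 and 10.2 against 6.93 and 5.44 CPM (-0.73, SE 0.17, adjusted p = 0.0063). Klf4, Klf5 and Tfap2a did not pass, with log2 fold changes from 0.03 to 0.17. Tfap2c (1.21), Ovol2 (1.12), Foxa1 (0.59), Grhl1 (0.52) and Id3 (-0.03) did not pass either.

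Promoters were searched for 4 short motifs, because genes of the epithelial lists moved together. The sequences were taken from RefSeq on GRCm38.p6, as the 250 bases before the gene start. The motifs were CAGGTG, the E-box read by repressors of the SNAI and ZEB families, AACCGGTT, a site of grainyhead factors, TGANTCA, the AP-1 site, and GGAATG, a TEAD core, each on both strands. A promoter was found for 27025 genes, 8946 of the tested genes and 21 of the 30 largest changes. CAGGTG was present in 19.4% of all promoters, in 18.1% of those of tested genes, in 258 of 1019 (25.3%) for genes that rose and in 150 of 965 (15.5%) for genes that fell. In the epithelial lists it was present in 23 of 49 (46.9%) of tested members and in 15 of 28 (53.6%) of those that rose. TGANTCA was present in 5.53% of tested genes and in 7.85% of genes that rose. GGAATG was present in 12.6% and 13.7%. AACCGGTT was rare, in 23 of 8946 tested genes (0.257%) and in 1 of 1019 genes that rose (0.0981%). No test was run on these shares, and the base composition of the windows was not compared between sets.

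The windows of 3 genes are shown, Cldn4 and Mal, which rose, and S100a4, which fell, with matches to any of the 4 motifs in capitals. They end at the base before the gene start and overlap no annotated exon. Cldn4 (chr5:134946935-134947184, minus strand) has 1 E-box, which starts 14 bases before the gene start, and 2 AP-1 sites, which start 240 and 158 bases before it.
Cldn4: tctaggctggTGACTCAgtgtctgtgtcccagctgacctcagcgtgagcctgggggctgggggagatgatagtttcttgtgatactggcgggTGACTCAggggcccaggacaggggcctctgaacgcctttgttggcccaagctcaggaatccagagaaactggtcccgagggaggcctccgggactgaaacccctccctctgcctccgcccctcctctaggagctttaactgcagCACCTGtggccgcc
Mal (chr2:127656696-127656945, minus strand) has 1 TEAD core, which starts 89 bases before the gene start.
Mal: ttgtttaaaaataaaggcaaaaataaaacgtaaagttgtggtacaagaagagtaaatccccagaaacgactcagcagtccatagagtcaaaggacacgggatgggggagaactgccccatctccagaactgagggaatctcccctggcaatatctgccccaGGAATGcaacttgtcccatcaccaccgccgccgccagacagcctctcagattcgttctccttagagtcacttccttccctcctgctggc
S100a4 (chr3:90603520-90603769, plus strand) has none of these motifs in the window.
S100a4: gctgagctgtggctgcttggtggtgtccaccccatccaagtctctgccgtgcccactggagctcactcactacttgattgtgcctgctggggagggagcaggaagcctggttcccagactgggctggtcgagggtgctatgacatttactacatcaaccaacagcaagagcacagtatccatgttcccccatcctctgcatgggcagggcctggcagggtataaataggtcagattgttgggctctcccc

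Mesenchymal genes fell more often than they rose. Of 14 tested members, 8 fell and 1 rose (5 fell without empty-vector library 1 or without empty-vector library 2), with a median log2 fold change of -0.20, where 11.3% of all tested genes fell. S100a4, a calcium-binding protein of motile cells that has been linked to metastasis, was at 480.1 and 464 CPM in the empty-vector libraries and 219.9 and 226 CPM in those with the Gpr56 vector (-1.08, SE 0.05, adjusted p = 6.23e-09). The median of its chromosome 3 was -0.20 over genes above 10 CPM. Twist1, a transcription factor that drives mesenchymal programmes, was at 13.5 and 11.1 CPM in the empty-vector libraries and 6.88 and 6.10 CPM in those with the Gpr56 vector (-0.90, SE 0.17, adjusted p = 0.0012), and Zeb2, another, fell by 0.68 on the log2 scale. Snai1 did not pass (0.16). Vim fell by 0.58 and Sparc, a matrix-binding glycoprotein, by 0.59. Loxl2, a collagen-crosslinking oxidase, was at 1.97 and 2.35 against 0.749 and 1.13 CPM (-1.27, SE 0.40, adjusted p = 0.032). Cd44, a hyaluronan receptor, rose, at 386 and 390.3 against 445 and 458 CPM (0.22, SE 0.05, adjusted p = 0.0075). Loxl2 (-1.37 on the log2 scale) and Cd44 (0.21) did not pass without empty-vector library 1. Loxl2 (-1.12 on the log2 scale) and Cd44 (0.22) did not pass without empty-vector library 2. Loxl2 (-0.94 on the log2 scale) did not pass without Gpr56-vector library 1.

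Matrix genes were divided. Of 21 tested matrix glycoproteins and proteoglycans, 10 fell and 4 rose (median -0.17; 2 rose without empty-vector library 2 or with centred chromosomes or with GC-corrected offsets). Fbln1, fibulin-1, was at 2.70 and 1.93 against 0.468 and 0.563 CPM (-2.18, SE 0.45, adjusted p = 0.0026), Thbs1, thrombospondin-1, fell by 0.47 and Tnc, tenascin-C, by 0.36 on the log2 scale. Those that rose were Ltbp3 (0.58) and Ltbp4 (0.43), which hold latent TGF-beta, and the proteoglycans Sdc1 (0.18) and Gpc1 (0.22). Of 20 collagens and basement membrane genes, 5 fell and 3 rose (median -0.10; 8 fell without Gpr56-vector library 1), and with GC-corrected offsets 9 fell and 2 rose. Col12a1, a chain of a fibril-associated collagen, was at 22.7 and 25.6 against 14.3 and 12.5 CPM (-0.83, SE 0.12, adjusted p = 2.07e-04). Lama5, a laminin chain of epithelial basement membrane, was at 277 and 267 against 339 and 336 CPM (0.31, SE 0.05, adjusted p = 7.27e-04), and Agrn, agrin, at 169 and 159 against 218 and 203 CPM (0.36, SE 0.06, adjusted p = 5.53e-04). Col3a1, which encodes type III collagen, had 0 reads in every 4T1 library. A count of 0 allows a level of up to 0.139 to 0.285 CPM at these depths, for counting error only. Gpc1 (0.24 on the log2 scale) did not pass without empty-vector library 1. Gpc1 (0.21 on the log2 scale) did not pass without empty-vector library 2.

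Among 16 integrins and collagen receptors, 5 rose and 1 fell (median 0.14). Itgb2, the beta chain of leukocyte integrins, was at 18.5 and 17.1 CPM in the empty-vector libraries and 39.5 and 39.03 CPM in those with the Gpr56 vector (1.15, SE 0.10, adjusted p = 1.38e-06). Itgb6, an epithelial chain that activates TGF-beta, was at 5.23 and 5.03 against 8.94 and 8.73 CPM (0.79, SE 0.18, adjusted p = 0.0049). The collagen-binding chain Itga2 rose by 0.38 on the log2 scale. Itga1 (-0.71), another collagen-binding chain, Itgb1 (-0.06), their shared partner, and the collagen receptor kinases Ddr1 (0.15) and Ddr2 (-0.05) did not pass. Itga7, a laminin-binding chain, was at 6.70 and 7.66 against 4.35 and 4.79 CPM (-0.67, SE 0.20, adjusted p = 0.024). Itga7 (-0.75 on the log2 scale) did not pass without empty-vector library 1. Itga7 (-0.56 on the log2 scale) did not pass without empty-vector library 2. Itga7 (-0.59 on the log2 scale) did not pass without Gpr56-vector library 1.

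Proteases and their inhibitors rose more often than they fell. Of 35 tested, 16 rose and 3 fell (median 0.20). Mmp13, a collagenase, was at 3.66 and 4.04 CPM in the empty-vector libraries and 8.98 and 8.35 CPM in those with the Gpr56 vector (1.17, SE 0.19, adjusted p = 5.05e-04), and Mmp9 and Mmp10, other matrix metalloproteinases, rose by 0.63 and 0.55 on the log2 scale. Serpinb2, an inhibitor of plasminogen activators, was at 44.6 and 44.7 CPM in the empty-vector libraries and 118 and 92.9 CPM in those with the Gpr56 vector (1.25, SE 0.09, adjusted p = 2.65e-07). Serpinb5, maspin, was at 7.20 and 9.54 against 21.1 and 17.3 CPM (1.20, SE 0.16, adjusted p = 7.43e-05). The membrane protease St14, matriptase, rose by 0.71 and its inhibitors Spint1 and Spint2 by 0.52 and 0.37. Plau, urokinase, rose by 0.57.

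Genes of the signalling path of GPR56 moved in both directions. Of 27 tested partners, 6 rose and 5 fell (median -0.03; 2 fell without empty-vector library 1, 3 fell without Gpr56-vector library 1). The G protein genes Gna12 and Gna13 did not pass (0.03 and -0.11), and Gnaq rose by 0.20. Of the exchange factors that G12/13 proteins activate, Arhgef1 was at 134 and 125 CPM in the empty-vector libraries and 184 and 173 CPM in those with the Gpr56 vector (0.46, SE 0.06, adjusted p = 7.57e-05), Arhgef12 rose by 0.28 and Arhgef11 did not pass (-0.08). Rhoa itself had a log2 fold change of -0.13 and did not pass. Rhob rose by 0.22, while Rhoc, on chromosome 3, was at 199 and 195 against 138 and 155 CPM (-0.43, SE 0.06, adjusted p = 1.67e-04). Rgs16, a brake on G protein signalling, was at 131 and 141 CPM in the empty-vector libraries and 207 and 209.7 CPM in those with the Gpr56 vector (0.61, SE 0.06, adjusted p = 4.20e-06), and its relative Rgs2 at 3.21 and 3.20 against 1.36 and 0.844 CPM (-1.46, SE 0.34, adjusted p = 0.0065). Tgm2, a binding partner of the receptor, and the tetraspanins Cd81 and Cd9, which associate with it, did not pass (-0.14, 0.10 and 0.15).

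Other adhesion receptors of the family were mostly scarce, and 9 of the 27 had no read in any 4T1 library. Of 10 tested, 3 rose and 1 fell. Celsr1, a receptor of planar polarity, was at 11.03 and 9.45 CPM in the empty-vector libraries and 20.9 and 22.1 CPM in those with the Gpr56 vector (1.07, SE 0.13, adjusted p = 3.94e-05). Adgrf5 was at 9.62 and 9.21 against 5.01 and 4.69 CPM (-0.95, SE 0.18, adjusted p = 0.0013) and Adgre5 at 2.70 and 1.504 against 3.65 and 4.97 CPM (1.02, SE 0.32, adjusted p = 0.032). Adgre5 (0.65 on the log2 scale) did not pass without empty-vector library 2. Adgre5 (0.82 on the log2 scale) did not pass without Gpr56-vector library 2.

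Targets of RhoA signalling had medians near 0 on the log2 scale. SRF and its cofactor MRTF switch on actin and contractile genes, and of 18 tested targets 1 rose and 4 fell (2 fell without empty-vector library 1 or with centred chromosomes, 1 fell without empty-vector library 2), where 22.8% of all tested genes changed (median 0.00). Vcl, vinculin, was at 222 and 214 against 255 and 265 CPM (0.25, SE 0.06, adjusted p = 0.0037) and Zyx, zyxin, at 170.2 and 166 against 137 and 137 CPM (-0.29, SE 0.06, adjusted p = 0.0016), and Vcl did not pass with centred chromosomes (0.15). Actb, Myh9, Tagln and Srf did not pass, with log2 fold changes between -0.15 and 0.15. Of this list 5.56% rose and 22.2% fell, against 11.5% and 11.3% of all tested genes. With centred chromosomes 0 rose and 2 fell. Of 18 targets of YAP and TEAD, 4 rose and 4 fell (median 0.02; 2 fell without empty-vector library 2 or with centred chromosomes, 2 rose without Gpr56-vector library 1). Cyr61 was at 450.4 and 486 against 386 and 395 CPM (-0.26, SE 0.06, adjusted p = 0.0032), F3, tissue factor, at 16.6 and 14.9 against 25.5 and 27.02 CPM (0.74, SE 0.11, adjusted p = 3.01e-04) and the GTPase-activating protein Dlc1 at 6.30 and 7.05 against 1.64 and 0.938 CPM (-2.28, SE 0.28, adjusted p = 3.98e-05). Cyr61 and F3 are on chromosome 3, and Cyr61 did not pass with centred chromosomes. Among 28 actin regulators, 6 rose and 4 fell (7 fell without Gpr56-vector library 1 or with GC-corrected offsets), with Tmsb4x, which binds monomeric actin, at 109.7 and 123 against 63.5 and 57.7 CPM (-0.93, SE 0.07, adjusted p = 4.81e-07) and Gsn, gelsolin, at 271 and 264 against 377 and 368 CPM (0.48, SE 0.05, adjusted p = 1.85e-05). Vcl (0.23 on the log2 scale) and Cyr61 (-0.20) did not pass without empty-vector library 2.

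Immediate early genes rose in part. Of 23 tested, 7 rose and 0.0 fell (median 0.16; 4 rose with DESeq2). Jund was at 76.7 and 118 against 190.0 and 176 CPM (0.91, SE 0.13, adjusted p = 1.17e-04) and Junb at 198 and 263 against 373 and 325 CPM (0.60, SE 0.10, adjusted p = 4.84e-04). The empty-vector libraries differed for both. The groups did not overlap in either gene, which held for 2584 of the 2588 changed genes. Dusp5, a phosphatase of ERK, was at 66.2 and 65.9 against 93.4 and 93.7 CPM (0.50, SE 0.06, adjusted p = 4.10e-05). Fos (0.58), Jun (-0.02), Egr1 (-0.38) and Myc (-0.01) did not pass.

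Growth factor receptors of the ErbB family rose. Erbb3 was at 8.67 and 7.76 CPM in the empty-vector libraries and 16.2 and 18.1 CPM in those with the Gpr56 vector (1.06, SE 0.14, adjusted p = 9.29e-05) and Erbb2 at 41.1 and 39.2 against 50.2 and 54.05 CPM (0.37, SE 0.08, adjusted p = 0.0026). Egfr was at 11.1 and 9.87 against 18.2 and 12.8 CPM (0.59, SE 0.16, adjusted p = 0.016), with Gpr56-vector library 2 close to the empty-vector libraries. Areg, a ligand of Egfr, was at 57.1 and 60.3 against 79.6 and 68.03 CPM (0.34, SE 0.08, adjusted p = 0.0046). Vegfa, the main angiogenic factor, was at 23.7 and 27.4 against 16.8 and 14.5 CPM (-0.70, SE 0.12, adjusted p = 8.09e-04), and it lies on chromosome 17. Of all 29 growth factor ligands and receptors, 9 rose and 4 fell (2 fell without empty-vector library 1 or with centred chromosomes, 1 fell without empty-vector library 2 or without Gpr56-vector library 1 or with DESeq2). In the Wnt and Notch list 8 of 27 rose and 5 fell (5 rose and 2 fell without empty-vector library 2, 2 fell without Gpr56-vector library 1, 5 rose and 3 fell with DESeq2). Notch1 was at 20.5 and 20.4 against 33.8 and 32.1 CPM (0.69, SE 0.10, adjusted p = 1.60e-04) and the ligand Wnt7a at 52.6 and 54.1 against 83.8 and 83.8 CPM (0.65, SE 0.06, adjusted p = 5.04e-06). Sfrp1, a secreted Wnt antagonist, was at 6.25 and 6.77 against 1.40 and 1.88 CPM (-2.04, SE 0.26, adjusted p = 6.19e-05) and the receptor Fzd7 at 19.8 and 19.9 against 10.3 and 11.1 CPM (-0.90, SE 0.13, adjusted p = 1.32e-04). Of 26 TGF-beta and BMP genes, 2 rose and 4 fell (0 rose without empty-vector library 1 or without empty-vector library 2 or without Gpr56-vector library 1 or with DESeq2, 2 fell with centred chromosomes), among them the ligand Tgfb2 at 8.33 and 9.54 against 4.91 and 3.85 CPM (-0.9971, SE 0.19, adjusted p = 0.0017). Of the TGF-beta and BMP list, 7.69% rose and 15.4% fell, against 11.5% and 11.3% of all tested genes. Egfr (0.50 on the log2 scale) did not pass without empty-vector library 2. Egfr (0.28 on the log2 scale) and Areg (0.21) did not pass without Gpr56-vector library 1.

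Chemokines were changed in 12 of 14 tested members, 8 upward and 4 downward (5 rose with DESeq2), where 22.8% of all tested genes changed. Cxcl3, a neutrophil chemokine, was at 14.7 and 14.9 against 24.4 and 22.99 CPM (0.69, SE 0.11, adjusted p = 5.47e-04) and Ccl20, which draws cells bearing Ccr6, at 6.70 and 9.64 against 17.2 and 17.3 CPM (1.06, SE 0.16, adjusted p = 2.66e-04). Ccl2, a monocyte chemokine, was at 166 and 179 CPM in the empty-vector libraries and 113 and 108 CPM in those with the Gpr56 vector (-0.64, SE 0.06, adjusted p = 4.31e-06). Ccl7, a relative of Ccl2, was at 3.88 and 5.50 against 1.45 and 1.60 CPM (-1.64, SE 0.30, adjusted p = 0.0011). Csf1, the growth factor of macrophages, was at 299 and 301 CPM in the empty-vector libraries and 166 and 171 CPM in those with the Gpr56 vector (-0.83, SE 0.05, adjusted p = 1.17e-07), and it lies on chromosome 3. Of 25 cytokines and colony-stimulating factors, 5 rose and 3 fell, with Il1a at 199 and 214 against 298 and 286 CPM (0.50, SE 0.06, adjusted p = 2.25e-05) and Il23a at 24.9 and 23.8 against 37.5 and 42.5 CPM (0.71, SE 0.10, adjusted p = 1.05e-04). Of 23 checkpoint and leukocyte ligands, 4 rose and 5 fell (3 fell without empty-vector library 1). Vcam1, an adhesion molecule for leukocytes, was at 143 and 142 CPM in the empty-vector libraries and 74.7 and 79.1 CPM in those with the Gpr56 vector (-0.89, SE 0.06, adjusted p = 1.57e-07), and Raet1e, a ligand of the NKG2D receptor, at 2.03 and 1.97 against 0.374 and 0.188 CPM (-2.67, SE 0.51, adjusted p = 0.0014).

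Class I genes of the MHC, which present peptides to cytotoxic T cells, fell or did not pass. Of 24 tested, 11 fell and 0.0 rose (median -0.28). Nlrc5, their transactivator, was at 12.8 and 12.5 CPM in the empty-vector libraries and 5.90 and 6.57 CPM in those with the Gpr56 vector (-1.03, SE 0.16, adjusted p = 2.68e-04). Tap2, a peptide transporter, was at 12.1 and 12.6 against 7.16 and 6.47 CPM (-0.84, SE 0.15, adjusted p = 0.0011), the immunoproteasome subunit Psmb8 fell by 0.71 and B2m, the shared light chain, by 0.29 on the log2 scale. H2-Q7, whose reads can be shared with close copies, was at 6.42 and 4.37 against 2.95 and 2.81 CPM (-0.89, SE 0.26, adjusted p = 0.022). Of the 24 members, 14 lie on chromosome 17, where 36.6% of all genes fell, and 6 of these 14 fell. With centred chromosomes 9 members fell and 2 rose, and the median was -0.09. Nlrc5 is on chromosome 8 and B2m on chromosome 2. H2-Q7 (-0.59 on the log2 scale) did not pass without empty-vector library 1. H2-Q7 (-0.93 on the log2 scale) did not pass without Gpr56-vector library 1.

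Interferon-stimulated genes rose in 10 of 32 cases and fell in 2 (median 0.29; 6 rose without empty-vector library 1, 4 rose without empty-vector library 2, 3 rose without Gpr56-vector library 1 or with DESeq2). Of the 12 members with at least 10 CPM in 2 libraries, 4 rose and 2 fell, with a median of 0.08. Oasl1 was at 15.3 and 11.5 against 28.4 and 22.2 CPM (0.95, SE 0.15, adjusted p = 3.40e-04), and Cmpk2, at 1.01 and 0.705 against 3.14 and 2.81 CPM (1.81, SE 0.37, adjusted p = 0.0025), was scarce. Rsad2, at 2.42 and 0.940 against 6.22 and 1.97 CPM (1.41, SE 0.46, adjusted p = 0.036), overlapped between the groups. Ifit2, an RNA-binding antiviral protein, was at 22.5 and 19.8 against 11.3 and 11.1 CPM (-0.91, SE 0.13, adjusted p = 1.28e-04), and Irf1, a transcription factor of the interferon response, at 59.7 and 59.8 against 44.97 and 43.9 CPM (-0.42, SE 0.07, adjusted p = 4.53e-04). Rsad2 (0.85 on the log2 scale) did not pass without empty-vector library 2. Rsad2 (0.26 on the log2 scale) did not pass without Gpr56-vector library 1.

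Genes of sterol and fatty acid synthesis rose in part. Of 33 tested, 12 rose and 0.0 fell (median 0.14), and with centred chromosomes 16 rose and 1 fell. Fdft1, squalene synthase, was at 119 and 116 CPM in the empty-vector libraries and 151 and 162 CPM in those with the Gpr56 vector (0.41, SE 0.06, adjusted p = 1.73e-04) and Fads2, a fatty acid desaturase, at 98.4 and 89.96 against 120.5 and 129 CPM (0.40, SE 0.06, adjusted p = 4.28e-04). Scd2 rose the most of these on the log2 scale, by 0.45.

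Genes of the ATF4 and ER stress response fell more often than they rose. Of 31 tested, 14 fell and 3 rose (median -0.18; 9 fell without empty-vector library 1). Chac1, a glutathione-degrading enzyme, was at 21.2 and 21.4 CPM in the empty-vector libraries and 10.6 and 8.82 CPM in those with the Gpr56 vector (-1.11, SE 0.13, adjusted p = 2.99e-05) and Ddit4, an inhibitor of mTORC1, at 21.2 and 23.2 against 11.1 and 12.9 CPM (-0.91, SE 0.13, adjusted p = 1.30e-04). Cebpb was at 14.7 and 20.1 against 29.9 and 28.5 CPM (0.74, SE 0.13, adjusted p = 8.74e-04) and the cystine transporter Slc7a11 at 17.95 and 15.9 against 22.4 and 27.1 CPM (0.53, SE 0.12, adjusted p = 0.006), both upward. Of 19 heat shock proteins 5 rose and 3 fell (3 rose and 1 fell without empty-vector library 1 or without empty-vector library 2, 1 fell without Gpr56-vector library 2 or with centred chromosomes, 2 rose and 1 fell with DESeq2). Cryab, a small heat shock protein like Hspb1, was at 19.6 and 21.8 against 31.2 and 39.03 CPM (0.74, SE 0.12, adjusted p = 3.60e-04). Of 30 genes of glycolysis and hypoxia 3 rose and 7 fell (1 rose and 3 fell without empty-vector library 1, 4 fell without empty-vector library 2), with the glucose transporter Slc2a1 at 82.8 and 81.8 against 104 and 114 CPM (0.40, SE 0.06, adjusted p = 4.06e-04) and the carbonic anhydrase Car9 at 3.49 and 2.68 against 0.702 and 0.938 CPM (-1.95, SE 0.38, adjusted p = 0.0018). Of 33 NRF2 and glutathione genes 8 rose and 4 fell (4 rose without empty-vector library 1 or without empty-vector library 2, 5 rose with DESeq2). Of the NRF2 and glutathione list, 24.2% rose and 12.1% fell, against 11.5% and 11.3% of all tested genes. Slc7a11 (0.45 on the log2 scale) did not pass without empty-vector library 2.

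All 13 genes encoded in mitochondria fell, with a median log2 fold change of -0.53. mt-Co3, a subunit of cytochrome oxidase, was at 1591 and 1808 against 1197 and 979 CPM (-0.64, SE 0.08, adjusted p = 4.30e-05) and mt-Co1 at 1370.4 and 1823 against 1199.8 and 1119.6 CPM (-0.46, SE 0.09, adjusted p = 0.0019). They took 0.755% and 0.965% of reads in the empty-vector libraries and 0.652% and 0.568% with the Gpr56 vector. The libraries of a vector differed as well. The median log2 ratio of these genes was 0.48 between the empty-vector libraries and -0.25 between the Gpr56-vector libraries, against -0.22 for the nearest pair of unlike libraries. Their transcripts were poor in GC, with a median of 37.1%, and with GC-corrected offsets 11 of the 13 fell. Without empty-vector library 2, 9 fell and the median was -0.31, and without empty-vector library 1 it was -0.75. With DESeq2, 2 of the 13 fell.

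Changes in cell cycle genes were small. Of 50 tested, 14 fell and 4 rose (1 rose and 7 fell without empty-vector library 1, 1 rose and 4 fell without empty-vector library 2, 1 rose without Gpr56-vector library 1 or with DESeq2), and the median log2 fold change was -0.02. Tyms, thymidylate synthase, was at 132 and 133 against 106 and 99.8 CPM (-0.36, SE 0.06, adjusted p = 4.84e-04), and Ccne1, a cyclin of S phase entry, at 27.4 and 29.8 against 35.2 and 34.2 CPM (0.28, SE 0.09, adjusted p = 0.037). No tested member changed by more than 0.36 on the log2 scale. Of 21 p53 targets and CDK inhibitors, 3 rose and 3 fell (1 rose without empty-vector library 1 or with centred chromosomes, 1 fell without empty-vector library 2, 5 fell without Gpr56-vector library 1), with the inhibitor Cdkn1a at 24.8 and 21.1 against 37.9 and 35.1 CPM (0.68, SE 0.10, adjusted p = 2.74e-04) and Gadd45a at 11.1 and 13.8 against 6.64 and 6.94 CPM (-0.88, SE 0.16, adjusted p = 0.0013). Of the p53 and CDK inhibitor list, 14.3% rose and 14.3% fell, against 11.5% and 11.3% of all tested genes. Ccne1 (0.23 on the log2 scale) did not pass without empty-vector library 1. Ccne1 (0.34 on the log2 scale) did not pass without empty-vector library 2. Ccne1 (0.26 on the log2 scale) did not pass without Gpr56-vector library 1.

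Of 20 S100 and annexin genes, 7 rose and 2 fell (median 0.24; 3 rose without empty-vector library 2). Anxa8 was at 58.9 and 52.8 CPM in the empty-vector libraries and 134 and 134 CPM in those with the Gpr56 vector (1.27, SE 0.07, adjusted p = 1.02e-08) and S100a14 at 0.844 and 0.799 against 3.56 and 3.47 CPM (2.09, SE 0.35, adjusted p = 5.50e-04). Of the 20, 12 lie on chromosome 3, whose median was -0.20, and with centred chromosomes 10 members rose and 1 fell. Of 25 tetraspanins and apical surface genes, 9 rose and 2 fell (0 fell without empty-vector library 2), with Mal and Rab25 among those that rose. Tested members of that list ran from -4.11 to 2.51 on the log2 scale, and the axon guidance genes below from -2.69 to 1.28. Of 5 prolactin relatives, 3 rose, and the proliferins Prl2c2 and Prl2c3, at 5.23 and 5.03 against 9.50 and 10.9 CPM and 20.4 and 18.8 against 32.4 and 39.03 CPM, are near-identical and can share reads. Of 36 axon guidance genes, 7 rose and 5 fell (4 rose and 3 fell without empty-vector library 1, 3 rose and 3 fell without empty-vector library 2, 3 fell with DESeq2), with Sema3e at 70.7 and 68.999 against 115 and 119 CPM (0.74, SE 0.06, adjusted p = 9.06e-07). Of 10 prostaglandin enzymes 2 rose and 2 fell (0 fell without empty-vector library 2 or with DESeq2), of 12 lysophospholipid genes 1 rose and 2 fell, and of 31 lysosomal genes 2 rose and 6 fell (2 fell without empty-vector library 1 or without empty-vector library 2). Of the lysosomal genes 6.45% rose and 19.4% fell, against 11.5% and 11.3% of all tested genes. Of 7 tested Hox genes 0 passed by edgeR's quasi-likelihood test, by DESeq2 or by limma-voom, and 0 had an unadjusted p under 0.05. Hoxa5 was at 29.7 and 31.3 against 31.8 and 38.6 CPM (0.19, SE 0.10, adjusted p = 0.2), and passed without Gpr56-vector library 1 (0.34 on the log2 scale).

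**Figure D4:**
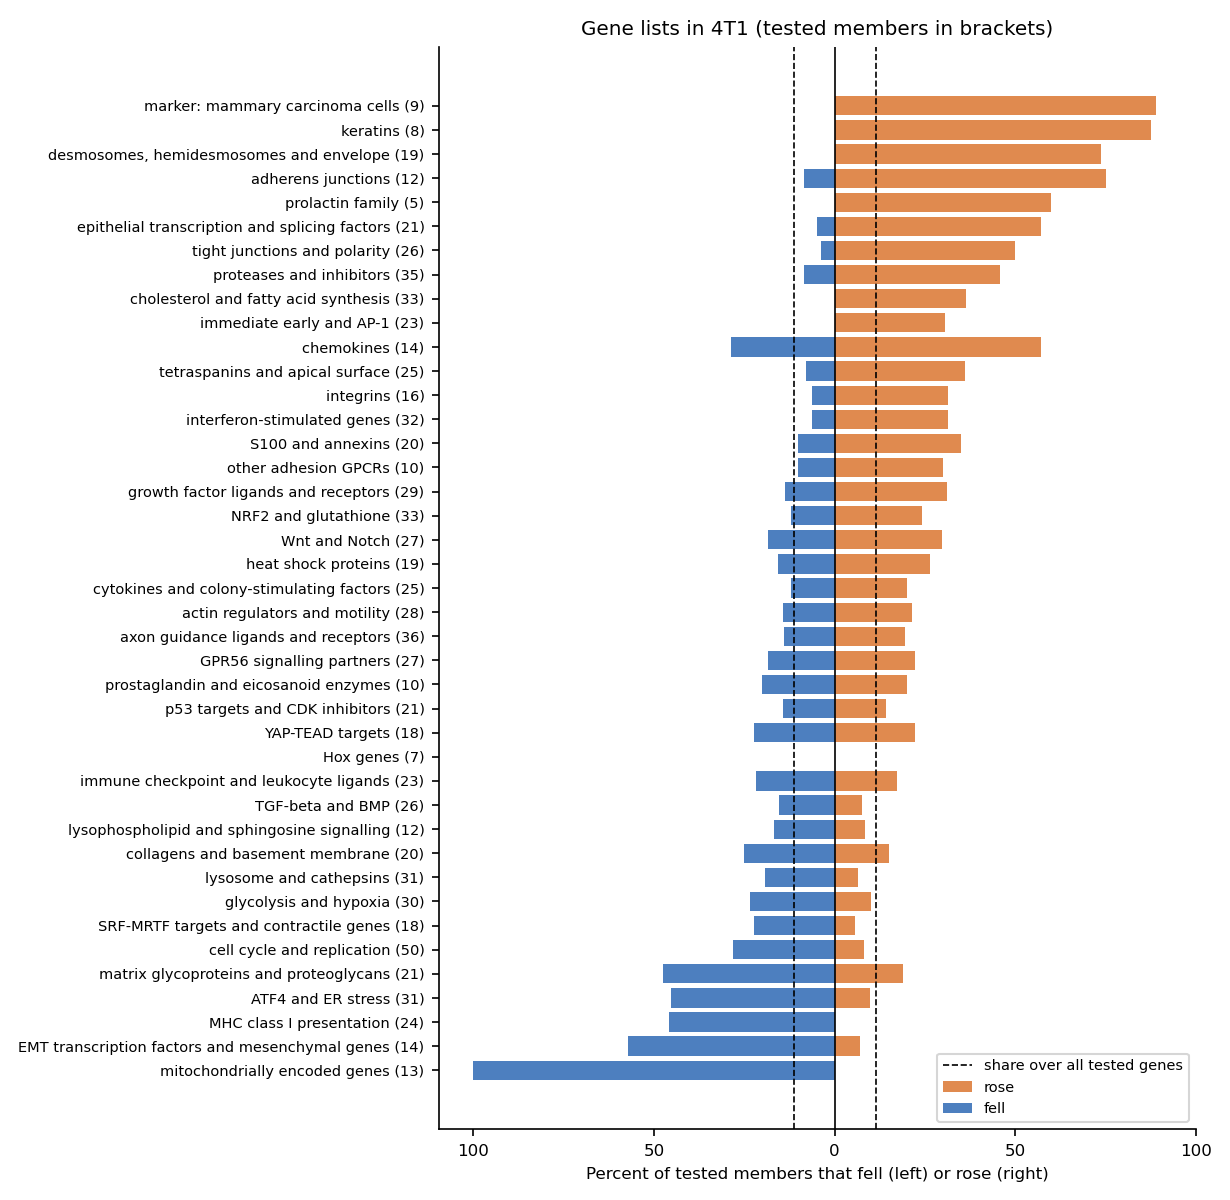
Percent of tested members that fell (left, blue) or rose (right, orange) in each gene list with at least 5 tested members, with the number tested in brackets. Dashed lines mark the shares over all tested genes (11.3% and 11.5%). Lists are ordered by the share that rose minus the share that fell, with carcinoma markers and keratins at the top and mesenchymal and mitochondrially encoded genes at the bottom. The tested carcinoma markers are also members of the keratin and junction lists.

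The libraries carried the markers of carcinoma cells. Of 10 such markers 9 were tested, of which 8 rose, Cldn7 did not pass (-0.47), and Krt5 had 0 reads in every library. All 9 tested markers are also members of the keratin, adherens junction or tight junction lists, so they are not a separate result. The level of the whole marker set was as follows. The 10 markers summed to 2295 and 2285 CPM in the empty-vector libraries against 3306 and 3226 CPM in the others. Markers of leukocytes summed to 15.1 and 13.6 against 24.9 and 27.8 CPM. Of these 14 genes, 8 had 0 reads in every 4T1 library, among them Adgre1, Cd3e, Tyrobp and C1qa, and 2 were tested. Both rose, Cd68 at 6.64 and 6.58 against 13.4 and 17.4 CPM (1.19, SE 0.16, adjusted p = 1.07e-04) and Cd14 at 8.05 and 6.96 against 11.2 and 9.95 CPM (0.51, SE 0.16, adjusted p = 0.033), while the other 12 markers together had between 2 and 8 reads per library. Markers of fibroblasts summed to 16.4 and 16.5 against 9.22 and 10.3 CPM, with Dcn, Lum, Col3a1, Fap and Thy1 at 0 reads. Pdgfra, at 13.3 and 13.3 against 7.95 and 8.26 CPM (-0.72, SE 0.14, adjusted p = 0.0021), made up most of that sum. Markers of endothelial cells summed to 1.58 and 1.36 against 2.01 and 1.501 CPM, and those of myoepithelial cells to 6.87 and 5.97 against 4.68 and 4.03 CPM. In bulk RNA, fewer cells of a type and less RNA per cell cannot be told apart. Cd14 (0.61 on the log2 scale) did not pass without empty-vector library 1. Cd14 (0.40 on the log2 scale) did not pass without empty-vector library 2. Cd14 (0.41 on the log2 scale) did not pass without Gpr56-vector library 1.

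The effect of the vector label differed between 4T1 and TS/A for 8 of 11970 genes (0.0668%) by edgeR's quasi-likelihood test of the difference over all 8 libraries, with 766 genes at an unadjusted p under 0.05. Adgrg1 itself was among them. In TS/A it stood at 34.8 and 16.3 CPM under the empty-vector label and 22.6 and 13.3 CPM under the Gpr56 label, so the transduced gene did not part the labels in that line (difference on the log2 scale, TS/A minus 4T1 -5.67, SE 0.55, adjusted p = 0.02). Libraries of TS/A are therefore named by their labels alone. Of the 8 genes, 6 had the more positive effect in 4T1 and 2 in TS/A. In TS/A, Mal was scarce, at 3.16 and 3.02 CPM under the empty-vector label and 0.990 and 1.29 CPM under the Gpr56 label, and was lower in both libraries with the Gpr56 label (TS/A minus 4T1 -3.01, SE 0.23, adjusted p = 0.0077), though the adjusted p within TS/A was 0.37. Anxa8 too was lower in both, at 7.59 and 8.72 CPM under the empty-vector label and 5.98 and 5.54 CPM under the Gpr56 label (TS/A minus 4T1 -1.76, SE 0.19, adjusted p = 0.033). Krt14 was at 1.93 and 1.72 CPM under the empty-vector label and 0.762 and 0.692 CPM under the Gpr56 label (TS/A minus 4T1 -1.95, SE 0.23, adjusted p = 0.037). Hspb1 was at 8.86 and 7.86 CPM under the empty-vector label and 8.80 and 7.43 CPM under the Gpr56 label, where the groups overlapped (TS/A minus 4T1 -2.37, SE 0.27, adjusted p = 0.037). Prl2c2 was at 158 and 171 CPM under the empty-vector label and 65.97 and 58.6 CPM under the Gpr56 label (TS/A minus 4T1 -2.38, SE 0.19, adjusted p = 0.0077).

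Vcam1, lower with the Gpr56 vector in 4T1, was at 3.57 and 3.55 CPM under the empty-vector label and 5.52 and 6.18 CPM under the Gpr56 label in TS/A (TS/A minus 4T1 1.60, SE 0.18, adjusted p = 0.035). Epdr1, an ependymin-related protein, was at 3.71 and 3.48 against 0.328 and 0 CPM in 4T1 and at 82.95 and 83.9 CPM under the empty-vector label and 86.8 and 90.3 CPM under the Gpr56 label in TS/A (TS/A minus 4T1 4.11, SE 0.49, adjusted p = 0.038). In 4T1 it had 7 and 0 reads with the Gpr56 vector, so its fitted value there depends on the count added in the fit. The number of genes that passed depended on single libraries. It was 0 without either TS/A library labelled Gpr56, 0 without 4T1 empty-vector library 1 or either 4T1 Gpr56-vector library, and 1 without 4T1 empty-vector library 2. In the fits with 0, between 443 and 657 genes had an unadjusted p under 0.05. It was 311 without TS/A empty-vector library 1 and 2391 without TS/A empty-vector library 2.

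**Figure D5:**
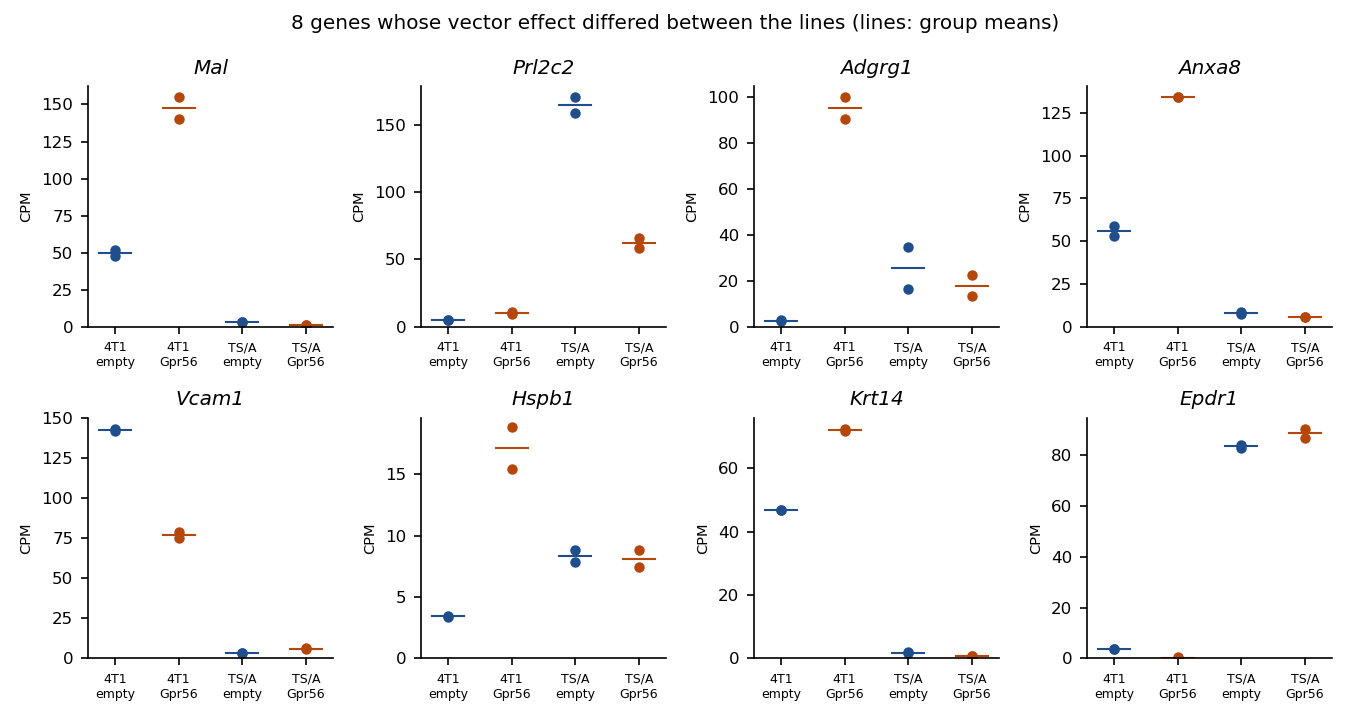
CPM in all 8 libraries for the 8 genes whose vector effect differed between the lines. Points are libraries, short lines are group means of 2 libraries, blue is the empty vector and orange the Gpr56 vector as labelled, and each panel has its own axis from 0. In Adgrg1 and Hspb1 the 4T1 groups stand apart while the TS/A groups overlap.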

How the data were processed

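Per the labels' protocols, RNA came from an RNeasy Mini Kit extraction, and the TruSeq RNA kit v2 served for the libraries. That kit does not mark strand, so reads of overlapping antisense genes cannot be told apart. Each deposited file gives whole-number read counts and RPKM for 65042 transcripts, per the file headers. Which aligner, counter and build made them was not given in the sources used here. Deposited RPKM served as a check only, and matched the counts within 0.001 in relative terms for 100% of rows with at least 21 reads.

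Counts were summed by gene name, giving 22026 genes, 14756 of them with reads in 4T1. Coordinates are from GENCODE M21 (GRCm38), which held 65023 of the transcripts. The 4 libraries of 4T1 were fitted alone with edgeR 4.0.16 in R 4.3.3 (filterByExpr, TMM factors from 0.984 to 1.01, glmQLFit and glmQLFTest), with Benjamini-Hochberg adjustment over all 11361 tested genes, a threshold of 0.05 and no fold limit. Fold changes are log2, Gpr56 over empty, with standard errors from the quasi-likelihood F. The difference between lines was fitted on all 8 libraries. Libraries of a group differed by more than sampling noise (a chi-square of 3.64 and 5.53 per degree of freedom), so none was merged.

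The 45 gene lists (1153 genes, 1146 found in the files, 868 tested), the members and the rule for names were chosen with earlier results of these data known, so lists are described by counts and medians. Named genes were Adgrg1, the 15 largest increases and decreases in log2 fold change and the 10 largest in mean CPM each way (past the threshold, groups not overlapping, at least 10 CPM in the higher group), up to 3 members each way per list at 2 CPM or more, the 6 smallest p values each way for the difference between lines, and genes within 100 kb of Adgrg1. Gm, Rik, accession-like and ribosomal pseudogene symbols were left out before the largest changes were ranked. Other list members were named after their values were seen. Alternatives were other scalings and filters, DESeq2 1.42.0, limma-voom 3.58.1, glmTreat, thinned reads, GENCODE sums, the replicate block and leaving out each library. Offsets that centre each chromosome with at least 200 genes over 10 CPM, or that follow GC content by lowess, were added after the data were seen. Some genes named by the rule are left out of the text.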

Additional observations from a re-analysis of the deposited data

Results flagged for a closer look

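The effect of the vector label differed between TS/A and 4T1 in 8 genes by edgeR's quasi-likelihood test of the difference over all 8 libraries, given here as TS/A minus 4T1 on the log2 scale. The difference was -5.67 for Adgrg1 (adjusted p = 0.02), -3.01 for Mal (adjusted p = 0.0077), -2.38 for Prl2c2 (adjusted p = 0.0077) and -2.37 for Hspb1 (adjusted p = 0.037). It was -1.95 for Krt14 (adjusted p = 0.037) and -1.76 for Anxa8 (adjusted p = 0.033). It was 4.11 for Epdr1 (adjusted p = 0.038) and 1.60 for Vcam1 (adjusted p = 0.035). In 4T1 the 2 groups did not overlap in any of the 8 genes, where 61.7% of all genes tested in 4T1 did not overlap. The 8 genes were picked by a test on the same libraries, so their separation adds no support. In TS/A the groups overlapped in Adgrg1 and Hspb1. Proliferin genes such as Prl2c2 have near-identical relatives, so its reads may be shared. In TS/A, Mal and Krt14 were at most at 3.16 CPM in any library.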

How the results depend on the processing

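The count of 2588 changed genes was 1549 with the DESeq2 Wald test, 134 when a fold above 1.5 was tested with glmTreat, and 27 with all 8 libraries in 1 fit. The list members among them, 376 of 868 tested, numbered 52 with glmTreat and 16 with all 8 libraries. Leaving out 1 library gave counts from 1403 to 2748, the lowest without empty-vector library 2. With all 8 libraries the spread, as edgeR's biological coefficient of variation, was 14.7%, against 5.47% with the 4 of 4T1. The cause of the other differences was not tested. DESeq2 size factors (2609), limma-voom (2681), no filter (2998), a filter of 10 CPM (2406), thinning to the shallowest library (2303) and summing through GENCODE (2576) stayed within 1.5 times. Library totals gave 2666 calls, 60.9% of them higher against 50.5%, with the median of all genes at 0.03.

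The difference between the lines, 8 genes, was 4 genes with library totals, 60 with no filter and 37 with the replicate block. Leaving out 1 library gave 0 to 2391. In 4T1 the differences between the 2 libraries of a vector had a correlation of -0.02 over genes. That value cannot show whether same-numbered libraries share a culture or a run, which was not tested. With the replicate block 2824 genes passed in 4T1.

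Signs turned in few named genes. Hoxa10, at -0.06 in the fit of 4 libraries and not called, ran from -0.126 to 0.0328 when 1 library was left out. Eif4g1 was at -0.0196 and Afdn at 0.0529 with chromosome-centred offsets. With chromosome-centred and GC-corrected offsets together, where 1838 genes passed, Eif4g1 was at -0.0702, Afdn at 0.0846 and Bmp1 at -0.0448 on the log2 scale. The shallowest library, with 10510569 reads, limits genes under about 0.285 CPM, the level of 3 reads there.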

Other observations

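Some genes between 5 and 10 CPM in the higher group, which the rule for names leaves out, had large fold changes. They were picked with their values in view. Pcdh18, a protocadherin, was at 5.68 and 5.36 CPM with the empty vector and at 0.328 and 0.563 CPM with the Gpr56 vector in 4T1 (log2 fold change -3.73, SE 0.36). Pdgfrl, a relative of the PDGF receptors, was at 8.67 and 8.93 against 1.03 and 1.69 CPM (-2.78, SE 0.26). Ly9, a surface receptor known from lymphocytes, was at 7.77 and 8.55 against 1.92 and 2.16 CPM (-2.02, SE 0.23). Upward, Zbtb32, a transcriptional repressor, was at 2.25 and 2.63 against 6.46 and 6.10 CPM (1.36, SE 0.23). The groups did not overlap in any of these 4 genes, where 61.7% of all tested genes did not overlap.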
